A study of Rattus norvegicus with 71 samples.

Results

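The genes described here are the scaffold gene Sav1 and 7 further core genes of the Hippo pathway, Stk3, Stk4, Lats1, Lats2, Yap1, Wwtr1 and Tead1, which make 8 of the 17494 genes in the count table. The set was chosen by Sav1, whose counts were higher in autoantibody-exposed than in control pups in earlier fits of these data, and the other 7 genes were added as its pathway partners. Sav1's differences between exposed and control animals are therefore given as a description, without a test. All 8 genes passed the filter on low counts in every comparison.

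In the Hippo pathway the MST kinases, which Stk3 and Stk4 encode, bind the scaffold protein SAV1 and activate the LATS kinases. The LATS kinases phosphorylate the coactivators YAP and TAZ, the products of Yap1 and Wwtr1, which are then held in the cytoplasm or degraded. Unphosphorylated YAP and TAZ enter the nucleus and drive transcription with TEAD proteins, and in the developing brain they are known for their part in the growth of neural progenitors. The pathway is regulated mainly through phosphorylation, which RNA counts do not measure.

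RNA came from a coronal slice of 150 um, with the hippocampal formation and neighbouring cortex and subcortex, of 71 Sprague-Dawley rat pups of wild-type genotype at postnatal day 2. Before pregnancy, the mothers of exposed pups had been given peptides from the proteins after which a pattern is named, and control mothers saline with adjuvant. There were 24 Control pups from 7 litters and 47 exposed (MARA) pups from 20 litters, namely 25 of LDHA/B+CRMP1+STIP1 from 9 litters, 8 of CRMP1+CRMP2 from 4, 8 of STIP1+NSE from 4 and 6 of CRMP1+GDA from 3. The samples were sequenced in 2 batches, of which batch 1 held 12 Control and 16 LDHA/B+CRMP1+STIP1 animals and batch 2 held 12 Control animals, 9 of LDHA/B+CRMP1+STIP1 and all animals of the other patterns. Pups of a litter share a dam, so that p-values taken over animals count littermates as independent. In a tissue slice, fewer cells of a type and less RNA per cell cannot be told apart.

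The libraries held between 24880182 and 36234952 counts. Neuron, radial glia and oligodendrocyte precursor markers were present in all groups. The batches differed in what the slices held: the summed level of 5 thalamus markers was 49 to 126 CPM (counts scaled to a common library size) in batch 1 against 62.8 to 1060 in batch 2, and that of 6 choroid plexus markers was 1.39 to 563 against 136 to 3259. RNA of the pineal gland (above 10 CPM in sum) or of Hox genes of hindbrain or spinal cord (above 1 CPM) stood out in 13 libraries, 1 of Control, 4 of CRMP1+CRMP2, 3 of CRMP1+GDA, 3 of LDHA/B+CRMP1+STIP1 and 2 of STIP1+NSE, and the exposure differences of Sav1 and of called members are given with and without them.

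TEAD proteins bind DNA at sites with the core letters GGAATG, read as CATTCC on the opposite strand. The 250 bases before the start site were searched for these letters on both strands in RefSeq promoters of rat build GRCr8, which is not the build the reads were aligned to. Of 5 members with an entry (Sav1, Stk4, Lats1, Yap1 and Wwtr1), Sav1 and Yap1 held the letters once each, and the others did not hold them in this window. Stk3, Lats2 and Tead1 had no entry. The letters occurred in 12.1% of all 33469 windows of this length and in 5 of 16 windows of listed YAP/TAZ target genes, namely Ccn1, Ccn2, Amotl2, Ptpn14 and Nuak2. The windows of Sav1 and Yap1 are shown because they hold the letters in the set's leading gene and in a coactivator gene, and those of the 2 best known target genes, Ccn1 and Ccn2, stand beside them for comparison. Each is written 5′ to 3′ on the gene's strand and ends at the base before the start site, with the letters in capitals. A match is a run of letters and was not tested for binding.
Sav1, chr6:94236099-94236348 of GRCr8, minus strand: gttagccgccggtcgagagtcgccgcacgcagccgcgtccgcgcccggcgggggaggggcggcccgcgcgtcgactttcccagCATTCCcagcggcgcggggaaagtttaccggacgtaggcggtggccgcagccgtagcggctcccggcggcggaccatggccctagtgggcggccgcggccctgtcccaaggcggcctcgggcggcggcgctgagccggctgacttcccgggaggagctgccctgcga
Yap1, chr8:13451438-13451687 of GRCr8, minus strand: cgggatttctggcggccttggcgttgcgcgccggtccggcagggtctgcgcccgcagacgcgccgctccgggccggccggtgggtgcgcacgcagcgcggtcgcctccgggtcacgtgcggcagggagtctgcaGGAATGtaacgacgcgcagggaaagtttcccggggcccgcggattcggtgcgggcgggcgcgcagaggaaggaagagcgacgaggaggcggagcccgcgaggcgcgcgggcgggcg
Ccn1, chr2:237225690-237225939 of GRCr8, minus strand: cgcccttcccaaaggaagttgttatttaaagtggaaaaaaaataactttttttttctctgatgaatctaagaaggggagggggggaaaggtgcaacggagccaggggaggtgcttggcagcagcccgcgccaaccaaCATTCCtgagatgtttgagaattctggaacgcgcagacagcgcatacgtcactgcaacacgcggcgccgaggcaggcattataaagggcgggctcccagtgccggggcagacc
Ccn2, chr1:22624615-22624864 of GRCr8, minus strand: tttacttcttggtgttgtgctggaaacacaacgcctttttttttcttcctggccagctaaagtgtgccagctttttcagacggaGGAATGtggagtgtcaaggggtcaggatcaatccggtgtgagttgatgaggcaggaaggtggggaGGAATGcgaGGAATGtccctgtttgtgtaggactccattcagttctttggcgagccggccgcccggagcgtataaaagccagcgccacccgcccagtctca
The capitals ended 161 bases before the start site in Sav1, 110 in Yap1 and 107 in Ccn1, and Ccn2 held the letters 3 times, the nearest ending 86 bases before its start site.

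Per length of exon, Lats1 and Sav1 had the highest levels of the 8 genes and Stk3 the lowest. In RPKM, which is the CPM divided by the table's exon length in kilobases, the means over all 71 animals were 15.9 ± 2.07 (SD) for Lats1, 15.6 ± 2.08 for Sav1, 12.4 ± 1.41 for Stk4 and 8.75 ± 2.04 for Yap1. They were 5.17 ± 1.21 for Tead1, 4.92 ± 1.27 for Wwtr1, 3.84 ± 0.582 for Lats2 and 2.20 ± 0.483 for Stk3. Neighbours in this order did not differ beyond their spread in 2 cases: Lats1 was above Sav1 in 42 of 71 animals and Tead1 above Wwtr1 in 43. Every other gene was above its next lower neighbour in at least 63 animals.

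Within each pair of related genes the order of the RPKM levels was nearly fixed. Lats1 exceeded Lats2 in 71 of 71 animals, with a median ratio of 4.06, and Stk4 exceeded Stk3 in 71 of 71, with a median ratio of 5.40. Yap1 exceeded Wwtr1 in 70 of 71 animals, and here the ratio ran from 0.963 to 4.45 with a median of 1.75. The pair of kinase genes of each step thus had a main and a minor member, and the coactivator pair lay closer together. Read counts behind these levels ranged from 62 to 268 per library for Stk3 and from 2324 to 4796 for Lats1, with the other 6 genes between these extremes in their medians (211 to 1842).

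The genes also differed in how steady they were between animals of the same pattern and batch. The SD of log2 CPM within these 7 groups was 0.15 for Stk4, 0.17 for Sav1, 0.18 for Lats1 and 0.23 for Lats2, against a median of 0.20 over the 12477 genes tested. It was 0.31 for Stk3 and Yap1, 0.34 for Tead1 and 0.40 for Wwtr1, which put Wwtr1 above 81.2% of the tested genes. Litter accounted for an estimated 58.8% of this variance in Wwtr1, 47.4% in Sav1, 47.2% in Lats1, 40.4% in Tead1, 39.3% in Lats2, 26% in Yap1 and 24.6% in Stk4, and for none in Stk3.

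**Figure D1:**
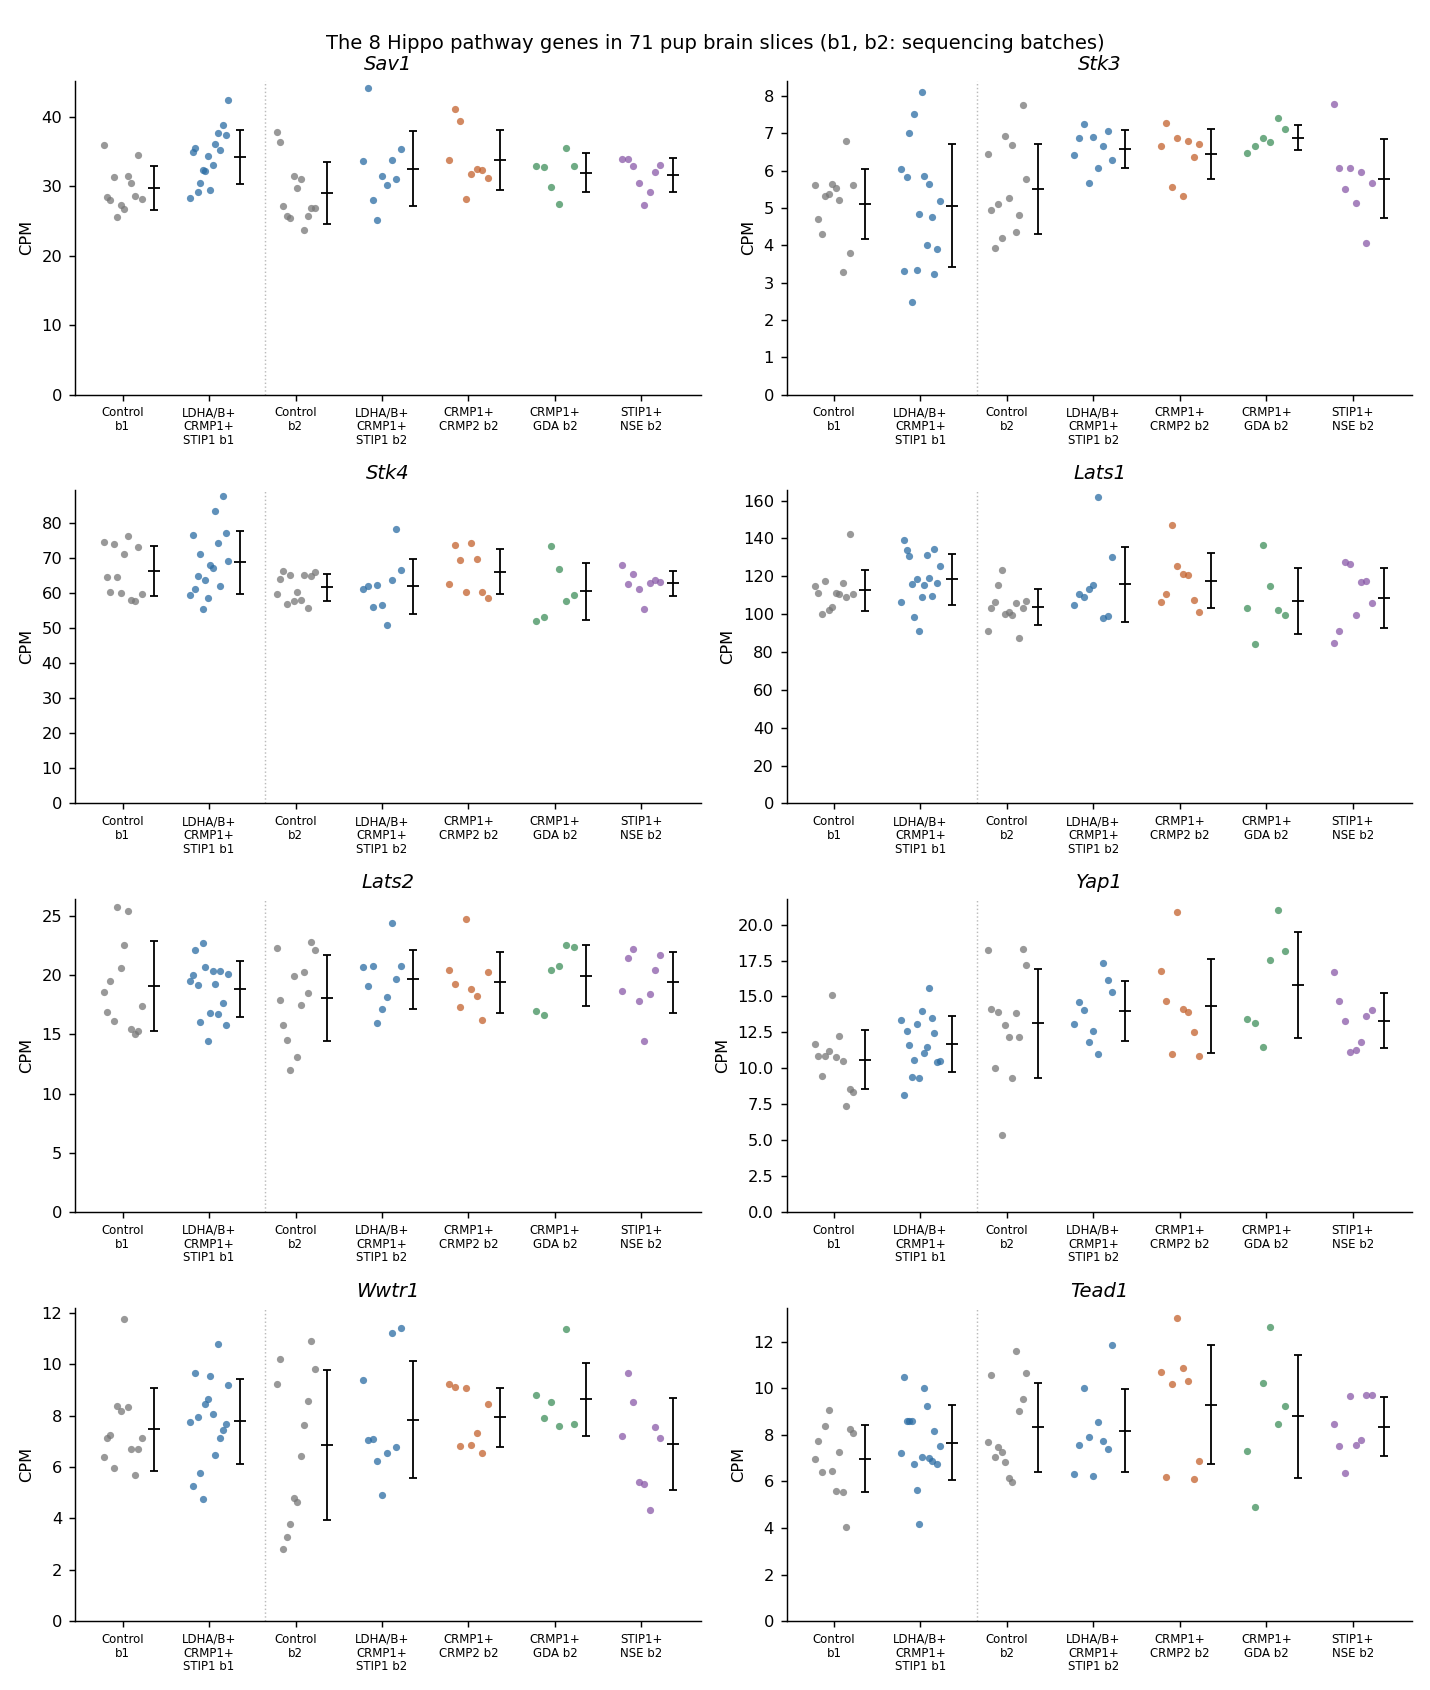
Level of each of the 8 genes in every animal, in CPM (linear axes from 0), by autoantibody pattern and sequencing batch (b1, b2), with 6 to 16 animals a group. Points are animals and black bars are the mean ± SD of a group. The exposed groups overlap the Control group of their batch for all 8 genes, and Sav1's exposed means (31.6 to 34.2 CPM) all lie above its Control means (29.7 and 29 CPM).

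Sav1 (chr6:88478916-88500121 of rn7, minus strand, 5 exons) had a higher mean in all exposed groups than in the controls of their batch, with single animals of the groups overlapping. In batch 1, Control animals ran from 25.6 to 36 CPM with a median of 28.5, and LDHA/B+CRMP1+STIP1 animals from 28.3 to 42.4 with a median of 34.7. In batch 2, Control animals ran from 23.6 to 37.8 CPM with a median of 27. The exposed animals of that batch had medians of 31.4 CPM (25.2 to 44.2) in LDHA/B+CRMP1+STIP1, 32.4 (28.2 to 41.1) in CRMP1+CRMP2, 32.8 (27.5 to 35.5) in CRMP1+GDA and 32.5 (27.3 to 34) in STIP1+NSE. Of 47 exposed animals, 41 were above the control median of 28.4 CPM, while 42 lay inside the control range and 5 above it. Within batches, 15 of 16 exposed animals in batch 1 and 30 of 31 in batch 2 were above the Control median of their batch.

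As a description, Sav1's log2 fold change over Control, with 1 surrogate variable as covariate, was 0.19 (SE 0.04) for all 47 exposed animals, from 33.1 ± 3.95 (SD, n = 47) against 29.4 ± 3.80 CPM (SD, n = 24). By pattern it was 0.24 (SE 0.07) for CRMP1+CRMP2, 0.17 (SE 0.05) for LDHA/B+CRMP1+STIP1, 0.15 (SE 0.09) for CRMP1+GDA and 0.14 (SE 0.08) for STIP1+NSE. These 4 values share the same 24 controls and cannot count as separate observations. Within batch 1, LDHA/B+CRMP1+STIP1 stood 0.20 (SE 0.06) above Control, and within batch 2 it stood 0.16 (SE 0.09) above it. Without the libraries with pineal or Hox RNA the value was 0.19 (SE 0.04) over all exposed animals, 0.24 (SE 0.10) in CRMP1+CRMP2, 0.20 (SE 0.05) in LDHA/B+CRMP1+STIP1, 0.14 (SE 0.11) in CRMP1+GDA, 0.17 (SE 0.08) in STIP1+NSE and 0.23 (SE 0.10) in LDHA/B+CRMP1+STIP1 of batch 2. Choroid plexus markers also stood higher in exposed animals, 6 of 6 with a median log2 difference of 0.94 over all of them and 5 of 6 with 0.91 in batch 1, of which 5 and 3 had an unadjusted p under 0.05 and 0 passed the adjusted test. Over the 27 litter means, each relative to its pattern and batch, Sav1 and the summed choroid plexus level gave Pearson's r = 0.44. Its adjusted permutation p was 0.16 over 80 pairs of a member and a marker list. The r was 0.67 within batch 2 and -0.63 within batch 1. The part of these markers in Sav1's value was not tested.

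Litters of the same group differed as much in Sav1 as exposed and control groups did. The 3 control litters of batch 1 had means of 27.8 to 31 CPM, below each of the 4 exposed litters of that batch (32 to 38.4). In batch 2 the 4 control litters ran from 25.8 to 37.1 CPM, and the highest, a litter of 2 pups at 36.4 and 37.8, was above 14 of the 16 exposed litters of its batch, which ran from 26.6 to 38.9. Sav1's litter groups therefore did not overlap in batch 1 and overlapped in batch 2. How many other genes separate in this way was not counted. Stk3's control litters of batch 2 (5.03 to 5.99 CPM) lay below those of LDHA/B+CRMP1+STIP1 (6.29 to 6.85), CRMP1+CRMP2 (6.06 to 6.97) and CRMP1+GDA (6.56 to 7.27). They overlapped those of STIP1+NSE (4.86 to 6.93). With the counts summed per litter, Sav1's log2 difference over all exposed animals was 0.14 (SE 0.07). In the fit over animals, where it was 0.19, it was between 0.16 and 0.23 with any single litter left out. The values of the smaller patterns moved further with 2 control litters of batch 2. Without the litter of 4 males, Sav1's lowest, the difference was 0.06 in CRMP1+GDA, 0.06 in STIP1+NSE and 0.07 in LDHA/B+CRMP1+STIP1 within batch 2. Without the litter of 2 pups, Sav1's highest, it was 0.25, 0.22 and 0.24.

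**Figure D2:**
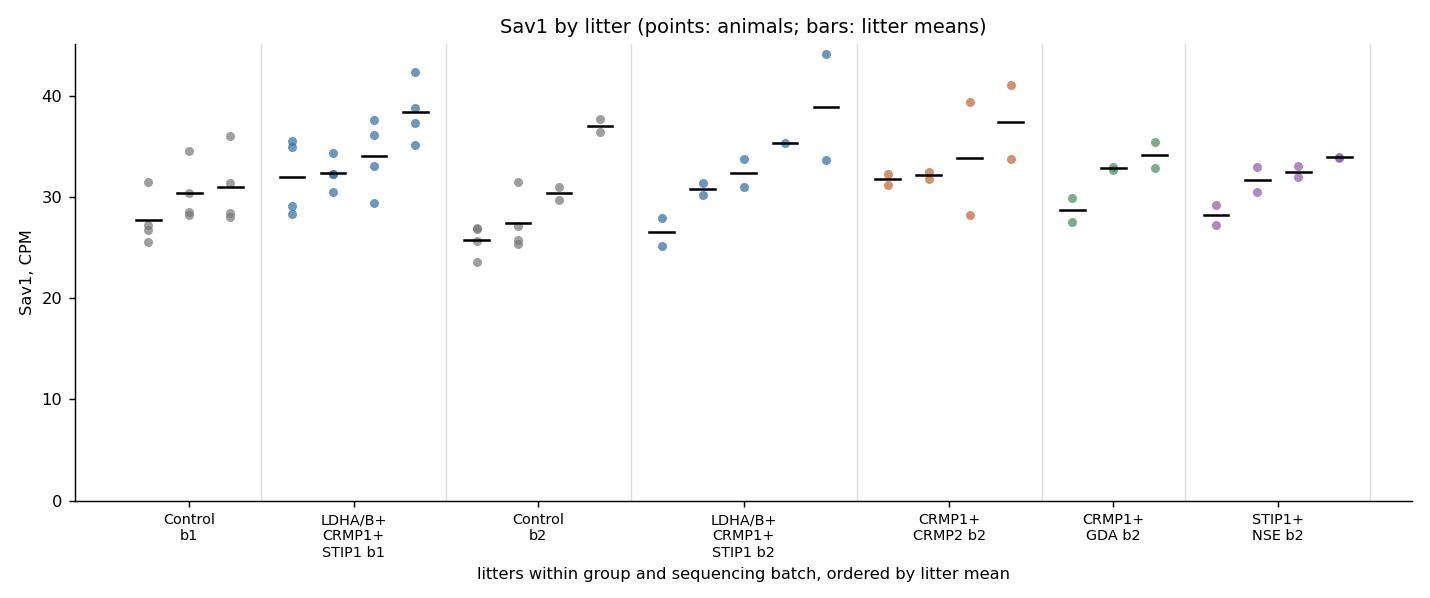
Sav1 level in CPM (linear axis from 0) for each animal, arranged by its litter within pattern and sequencing batch (b1, b2). Points are animals and black bars are litter means, of which there are 27. In batch 1 the control litter means (27.8 to 31 CPM) lie below all exposed ones (32 to 38.4 CPM), and in batch 2 they overlap.

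Sav1 ran opposite to the thalamus markers across litters. Over the 27 litter means, each taken relative to its pattern and batch, Pearson's r between Sav1 and the summed thalamus level was -0.70 and Spearman's rho -0.68 (permutation p = 0.00011 and 0.0004, 2-sided; Benjamini-Hochberg adjusted 0.0022 and 0.00503 over the 80 pairs of a member and a marker list). The r was -0.69 without the 2 litters farthest from the median in Sav1, -0.66 without the 2 farthest in thalamus level, -0.74 within the 20 litters of batch 2 and -0.29 within the 7 of batch 1, where the thalamus level was low in all animals. In batch 2 the controls had a median thalamus level of 752 CPM (267 to 933), and the exposed animals one of 635 (62.8 to 1060). The litter of batch 2 with the highest Sav1 mean, one of LDHA/B+CRMP1+STIP1 at 38.9 CPM, had the lowest thalamus mean of that batch, 87.2 CPM.

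Taking this marker level into the fit moved Sav1's difference in batch 2. In batch 1 it could move little, since the median thalamus level was 69.0 CPM in Control and 67.9 in exposed animals. The unchanged value of batch 1 is therefore no contrast to batch 2. With the log2 thalamus level as a covariate, the difference between LDHA/B+CRMP1+STIP1 and Control in batch 2 was 0.01 (SE 0.08) in place of 0.16, and in batch 1 it was 0.20 (SE 0.06) as before. All exposed animals of batch 2 stood 0.16 (SE 0.06) above Control without the covariate and 0.10 (SE 0.05) above it with it. Over both batches with the surrogate variable, the covariate moved the value from 0.19 to 0.17 (SE 0.04). These fits were added after the data had been seen. All 5 thalamus markers, of which Tcf7l2 and Slc17a6 were the most abundant, had higher means in batch 2 than in batch 1, and Sav1 was not shown to differ between the controls of the batches (log2 difference, batch 2 minus batch 1, -0.03, SE 0.07, adjusted p = 0.779 by edgeR's quasi-likelihood test).

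**Figure D3:**
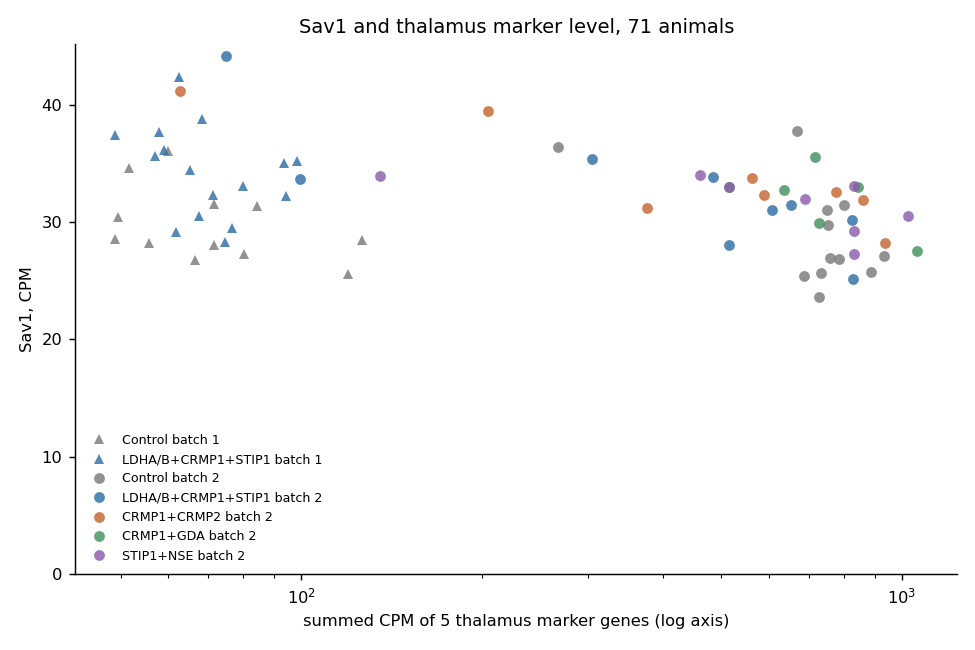
Sav1 level in CPM (vertical, linear) against the summed CPM of 5 thalamus marker genes (horizontal, log axis) in 71 animals. Triangles are batch 1 and circles batch 2, and colours mark the patterns. The batch 1 animals lie between 49 and 126 on the horizontal axis, and within batch 2 Sav1 is lower where the thalamus level is high.

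The other 7 genes were tested against Control with edgeR's quasi-likelihood test, adjusted over all genes of each fit at a false discovery rate (FDR) of 0.1. Over all 47 exposed animals 0 of 7 passed, beside 0.0321% of all 12477 genes tested. At an unadjusted p under 0.05 there were 2 of 7, Lats1 and Yap1, beside 10.3% of all genes, and DESeq2 called 0 of 7. Log2 fold changes of all 7 were above 0, between 0.04 and 0.14, beside 51.8% of all genes above 0 and a median of 0.00. By pattern, 7 of 7 were above 0 in CRMP1+CRMP2 and in LDHA/B+CRMP1+STIP1, 6 of 7 in CRMP1+GDA and 4 of 7 in STIP1+NSE. Several of these genes moved together between litters, so that their signs are not independent.

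The MST kinase genes did not pass in any pattern. Stk4 (chr3:152748600-152827744, plus strand), the main one of the pair, had a median of 64.3 CPM in Control (55.8 to 76.4) and of 63.3 in exposed animals (50.8 to 87.7), with a log2 difference of 0.04 (SE 0.04, adjusted p = 0.753). Stk3 (chr7:66053246-66323127, minus strand) had a median of 5.29 CPM in Control (3.28 to 7.75) and of 6.08 in exposed animals (2.48 to 8.12), with a log2 difference of 0.12 (SE 0.08, adjusted p = 0.568). In batch 2 its exposed medians were 6.65 CPM in LDHA/B+CRMP1+STIP1, 6.69 in CRMP1+CRMP2, 6.82 in CRMP1+GDA and 5.82 in STIP1+NSE, against 5.19 in Control. In that batch 29 of 31 exposed animals were above the control median, and in batch 1 it was 7 of 16. Stk3's largest pattern difference was 0.26 (SE 0.13, adjusted p = 0.999) in CRMP1+GDA, and in CRMP1+CRMP2 it was 0.24 (SE 0.11, unadjusted p = 0.0437, adjusted p = 0.192 by edgeR), and neither passed. In batch 1 its exposed median of 5.01 CPM lay below the control median of 5.35. The batches' differences for LDHA/B+CRMP1+STIP1, 0.25 in batch 2 and -0.01 in batch 1, were not shown to differ (difference 0.26, SE 0.20, adjusted p = 1.00 by edgeR).

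Of the LATS kinase genes, Lats1 (chr1:2160411-2193640, plus strand) was called higher in CRMP1+CRMP2 animals, the single call among the 7 genes in any pattern. The 8 animals ran from 101 to 147 CPM with a median of 116, and the 24 controls from 87.3 to 142 with a median of 107, so that the groups overlapped. The log2 difference was 0.17 (SE 0.06, adjusted p = 0.0742 by edgeR). A share of 1 in 7 members is near the 11.4% of all genes called in that pattern. This call was lost, with differences of 0.15 to 0.18, with litter as a random effect (adjusted p = 0.249), with batch and sex as covariates (0.129), in batch 2 alone (0.168) and without the 4 CRMP1+CRMP2 libraries and the 1 Control library with pineal or Hox RNA (0.446), a fit in which 1 of 12590 genes was called. Leaving out 1 litter moved the difference between 0.11 and 0.23 and ended the call for 6 of 11 litters, most of all for 1 CRMP1+CRMP2 litter of 2 males (0.11, adjusted p = 0.526). All 6 choroid plexus markers and all 4 pineal markers tested were called higher in CRMP1+CRMP2 in the same fit, and 0 of 2 Hox markers tested passed. That fit holds controls of both batches. The mean summed choroid plexus level was 1189 CPM in CRMP1+CRMP2, 902 in the controls of batch 2 and 21.8 in those of batch 1. For the pineal markers these means were 39.9, 4.09 and 2.70 CPM. Over the 27 litter means, each relative to its pattern and batch, Lats1 gave r = 0.57 with the Hox list (adjusted permutation p = 0.0617). Within batch 2 this r was 0.62 and within batch 1 -0.06. Lats1 gave r = -0.59 with choroid plexus (adjusted 0.0262) and 0.17 with pineal markers (0.73). The part of these tissues in the Lats1 value was not tested beyond leaving out those libraries.

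Lats1 was otherwise 0.10 (SE 0.05) above Control in LDHA/B+CRMP1+STIP1, 0.09 (SE 0.07) in CRMP1+GDA and 0.09 (SE 0.06) in STIP1+NSE on the log2 scale, and none of these passed. Lats2 (chr15:31825068-31865286, minus strand), the minor LATS gene, had all 47 exposed animals (14.4 to 24.7 CPM) inside the control range of 12.0 to 25.7. Its log2 differences by pattern were between 0.02 and 0.06, with SE of 0.07 to 0.13.

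The coactivator gene Yap1 (chr8:5098233-5166388, minus strand) had a median of 11.4 CPM in Control (5.39 to 18.3) and of 13.2 in exposed animals (8.15 to 21). Its log2 difference of 0.14 (SE 0.07) had an unadjusted p of 0.0480 and an adjusted p of 0.481 by edgeR. The medians pool both batches. Within them, 10 of 16 exposed animals of batch 1 and 18 of 31 of batch 2 were above the Control median of their batch. By pattern the difference was 0.14 in CRMP1+CRMP2 (SE 0.13), 0.15 in LDHA/B+CRMP1+STIP1 and in CRMP1+GDA (SE 0.08 and 0.15) and -0.03 (SE 0.14) in STIP1+NSE. Wwtr1 (chr2:141651159-141766919, minus strand), which encodes TAZ, had all 47 exposed animals (4.31 to 11.4 CPM) inside the control range of 2.80 to 11.8. Its value of 0.12 (SE 0.10) over all exposed animals was -0.02 without the batch 2 control litter of 4 females and 0.23 without that of 4 males.

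Tead1 (chr1:166792620-167002658, plus strand), the gene of a TEAD protein that carries YAP and TAZ on DNA, had a median of 7.38 CPM in Control (4.05 to 11.6) and of 7.90 in exposed animals (4.18 to 13.0), a log2 difference of 0.09 (SE 0.08, adjusted p = 0.696). In CRMP1+CRMP2 the median was 10.3 CPM (6.10 to 13.0), against 7.60 in the controls of batch 2 (5.99 to 11.6), and the difference of 0.16 (SE 0.13) did not pass (adjusted p = 0.467). Within batches, 9 of 16 exposed animals of batch 1 and 19 of 31 of batch 2 were above the Control median of their batch for Tead1.

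Against the same 24 controls, 0 of these 7 genes passed in LDHA/B+CRMP1+STIP1, beside 0.0157% of all genes, in CRMP1+GDA, beside 0% (460 genes at an unadjusted p under 0.05), and in STIP1+NSE, beside 0.0474%. Within LDHA/B+CRMP1+STIP1 alone, 0 of 7 passed in batch 1, beside 0.0161%, and in batch 2, beside 0% of 12570 genes (706 at an unadjusted p under 0.05). At that unadjusted level the members were Lats1 in LDHA/B+CRMP1+STIP1, Stk3 in batch 2 alone, and none in CRMP1+GDA, in STIP1+NSE and in batch 1 alone. DESeq2 called none of the 7 in any of these 5 comparisons.

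**Figure D4:**
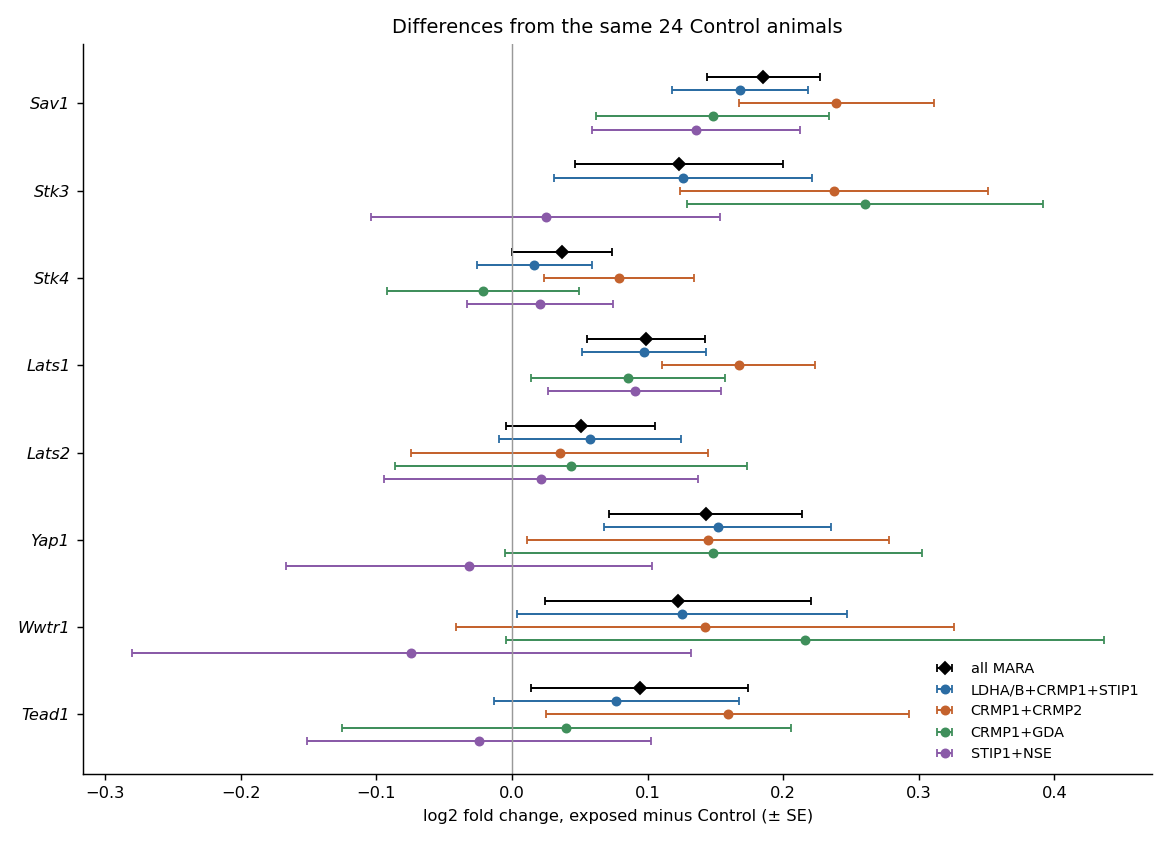
Log2 fold change of each of the 8 genes, exposed minus Control, for all 47 exposed animals (black diamonds) and for the 4 patterns (coloured circles), with bars of ± 1 SE. All 5 estimates share the same 24 Control animals, and Sav1's row is the one that chose the set. Sav1 lies between 0.14 and 0.24. The other genes' pattern estimates lie between -0.07 (Wwtr1 in STIP1+NSE) and 0.26 (Stk3 in CRMP1+GDA). The bars of Lats1 stay above 0 in all 4 patterns and those of Stk3 in all but STIP1+NSE, while many others reach 0.

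The 4 patterns were compared with each other within batch 2, where all of them were sequenced, over 31 exposed animals from 16 litters. No member passed (0 of 8, beside 0% of 12698 genes, of which 627 had an unadjusted p under 0.05; DESeq2 called 0 members). Sav1's adjusted p was 0.900, with CRMP1+CRMP2 0.06 above LDHA/B+CRMP1+STIP1, CRMP1+GDA 0.03 below it and STIP1+NSE 0.04 below it. The smallest adjusted p was that of Stk3, 0.817, whose STIP1+NSE animals lay lowest, 0.18 on the log2 scale below LDHA/B+CRMP1+STIP1.

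The difference between LDHA/B+CRMP1+STIP1 and Control was also compared between batches, and 0 of 8 members passed, beside 0.11% of all genes; none had an unadjusted p under 0.05, and DESeq2 called 0 of 8. Sav1's 2 values, 0.16 in batch 2 and 0.20 in batch 1, differed by -0.04 (SE 0.10, adjusted p = 1.00 by edgeR).

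Between 35 males and 36 females 0 of 8 members passed, beside 0.0641% of all genes, and DESeq2 called 0 of 8. Yap1 was the single member with an unadjusted p under 0.05: its mean was 13.5 ± 3.22 CPM in males (SD, n = 35) and 12.3 ± 2.69 in females (SD, n = 36), and the log2 difference of 0.14 (SE 0.07, p = 0.0459, adjusted p = 0.991 by edgeR) was 0.07 with litter as a factor. Exposure by sex gave 0 of 8, beside 0% of 12477 genes (388 at an unadjusted p under 0.05), and DESeq2 called 0 of 8. The largest members' interactions were those of the coactivators, with exposed males against control males 0.31 (SE 0.19) lower than exposed females against control females for Wwtr1 and 0.25 (SE 0.13) lower for Yap1. In batch 2 sex and litter were tied in the controls, since 1 litter of 4 was all female and 1 of 4 all male.

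The controls of the 2 batches differed in 41.5% of all genes. Of the 8 members 1 passed, Yap1, and a share of 1 in 8 lay below that background. Yap1 ran from 7.37 to 15.1 CPM with a median of 10.8 in the 12 controls of batch 1 and from 5.39 to 18.3 with a median of 13.4 in the 12 of batch 2, which held both the lowest and the highest animal. The log2 difference was 0.30 (SE 0.13, adjusted p = 0.0799 by edgeR). It was called in 4 of 6 alternatives and lost with litter as a random effect (difference 0.33, adjusted p = 0.257) and without the 1 control library with Hox RNA (difference 0.29, adjusted p = 0.111). Leaving out single litters, the call held for 3 of 7 and the difference ran from 0.18 to 0.42, the lower without 1 batch 1 control litter (adjusted p = 0.388).

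Lats1 stood at the threshold in the same comparison. Its controls had a median of 111 CPM in batch 1 (100 to 142) and of 103 in batch 2 (87.3 to 123), a log2 difference of -0.11 (SE 0.05, adjusted p = 0.108), which median-ratio size factors, no expression filter and DESeq2 each moved to between 0.0981 and 0.0987. Tead1 was 0.25 (SE 0.13) higher in batch 2 (adjusted p = 0.132), and 0.06 higher without the control litter of 4 males. In the same controls all 5 thalamus and all 6 choroid plexus markers were higher and 5 of 7 neuron markers lower in batch 2, and their part in the members' values was not tested here.

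Of 75 further Hippo pathway genes (upstream regulators, inhibitors of the kinases, partners of the effectors and YAP/TAZ targets), 62 were tested in each comparison. Over all exposed animals 0 of 62 passed, 9 had an unadjusted p under 0.05 and 44 of 62 log2 values were above 0, with a median of 0.03, beside 10.3% of all genes at that p, 51.8% above 0 and a median of 0.00. The 18 tested target genes gave no call and a median of 0.05, with 15 of 18 above 0. None of the 62 passed in LDHA/B+CRMP1+STIP1 (3 at an unadjusted p under 0.05, beside 7.17% of all genes), in CRMP1+GDA (2, beside 3.64%) or in STIP1+NSE (5, beside 3.20%), and DESeq2 called 0 of 62 in each of these.

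In CRMP1+CRMP2, 14 of 62 pathway genes (22.6%) passed, 8 higher and 6 lower, beside 11.4% of all genes. Higher were the atypical cadherin genes Fat4 (286 against 190 CPM in Control, log2 difference 0.65, SE 0.15) and Fat1 (279 against 192 CPM, 0.52, SE 0.13), and Rassf2, a RASSF family gene (0.21, SE 0.05). Among the lower ones were the 14-3-3 gene Ywhah (-0.22, SE 0.05), whose family holds phosphorylated YAP in the cytoplasm, and Ccn2, a YAP target (9.15 against 12.7 CPM, -0.32, SE 0.10). Adjusted p-values of these 5 genes by edgeR lay between 0.0084 and 0.0514. The Control means pool both batches, while all CRMP1+CRMP2 animals were of batch 2. Between the controls of the batches, Ccn2 was also lower in batch 2 (10.6 against 14.8 CPM, log2 difference -0.48, SE 0.09). Ywhah was higher in the controls of batch 2 (0.17, SE 0.04). Litter as a random effect left 2 of 62 called, beside 0.26% of all genes, and batch 2 alone 0 of 62, beside 1.01%. The fit without the 4 CRMP1+CRMP2 libraries and the 1 Control library with pineal or Hox RNA called 0 of 62, beside 1 of 12590 genes. With so few genes called, these last 2 fits would leave few calls in any list of this size.

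The controls of the batches differed in 30 of 62 pathway genes (48.4%, beside 41.5% of all genes), 13 higher and 17 lower in batch 2. The target genes split: of 18 tested, 5 were higher in batch 2, such as Nuak2 (5.50 against 2.93 CPM, log2 difference 0.92, SE 0.13) and Igfbp3 (40.3 against 25.7 CPM, 0.66, SE 0.11), and 6 were lower, such as Tgfb2 (53.2 against 97.8 CPM, -0.87, SE 0.11) and Asap1 (70.7 against 89.9 CPM, -0.34, SE 0.05). Of 12 tested inhibitors of the kinases 6 were lower and 1 higher, led by the striatin gene Strn (47.1 against 62.9 CPM, -0.41, SE 0.07). None of the 62 passed between the sexes, beside 0.0641% of all genes (5 at an unadjusted p under 0.05, beside 4.66%).

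Between litters the 2 coactivator genes and Lats2 moved together. Over 27 litter means, each relative to its pattern and batch, 11 of 28 pairs of members passed an adjusted permutation p of 0.1, all of them positive. The closest were Lats2 with Yap1 (r = 0.84, rho = 0.83, permutation p = 0.00018, adjusted 0.00252), Yap1 with Wwtr1 (r = 0.82, rho = 0.85, p = 2e-05, adjusted 0.00056) and Lats2 with Wwtr1 (r = 0.75, rho = 0.79, p = 0.00032, adjusted 0.00299). These 3 kept r of 0.77 to 0.82 without the 2 farthest litters, 0.74 to 0.87 within batch 1 and 0.80 to 0.88 within batch 2. Lats1 did not follow its paralog (r = -0.07) and paired with Tead1 alone (r = 0.49, adjusted 0.0774). The share of passing pairs among other genes was not counted, so the 11 of 28 have no background beside them.

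Sav1 passed with none of the other 7 genes by Pearson's r, and by Spearman's rho with Wwtr1 alone (rho = 0.50, permutation p = 0.0341, adjusted 0.0735). Its closest values were r = 0.47 with Wwtr1 (permutation p = 0.0973, adjusted 0.195, and r = 0.33 without the 2 farthest litters) and r = 0.39 with Yap1 (p = 0.118, adjusted 0.221). They were 0.54 and 0.47 within batch 2 and -0.19 and -0.14 within batch 1, so that the sign was not shared between batches.

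The litters' levels of Lats2, Yap1 and Wwtr1 followed markers of vessels, meninges and microglia. With the summed markers of pericytes and meningeal fibroblasts r was 0.80 for Wwtr1, 0.79 for Yap1 and 0.75 for Lats2, and with endothelial markers 0.80, 0.75 and 0.66 (adjusted permutation p between 0.0008 and 0.0096 over 80 pairs of a member and a marker list, a family added after the data had been seen). With microglia markers r was 0.77, 0.72 and 0.62 (adjusted 0.00743, 0.0096 and 0.0461). Yap1 also passed with choroid plexus (r = 0.63, adjusted 0.0154) and, like Wwtr1, with oligodendrocyte precursors (r = 0.59 and 0.57, adjusted 0.0461 and 0.0898). Stk3 gave r of 0.53 with the pericyte and meningeal list (adjusted 0.0403). The summed level of the 7 pericyte and meningeal markers ran from 122 to 762 CPM in Control and from 64.9 to 1291 in exposed animals, that of the 6 endothelial markers from 147 to 312 and from 162 to 357, and no defining marker of these lists was at 0 in any group. Over all exposed animals, 7 of 7 pericyte and meningeal markers (median log2 difference 0.35) and 6 of 6 endothelial markers (0.12) were above Control, beside 51.8% of all genes. At an unadjusted p under 0.05 by edgeR there were 1 and 2 of them, and 0 passed. Whether such cells carry part of the differences above was not tested. Sav1 and the endothelial markers gave r = 0.58 (adjusted 0.058), with 0.67 within batch 2 and -0.26 within batch 1. In all, 21 of the 80 pairs passed, 17 positive and 4 negative, and the negative ones were Sav1 with thalamus, Lats1 with choroid plexus (r = -0.59), and Lats2 and Tead1 with neurons (r = -0.51 and -0.51).

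**Figure D5:**
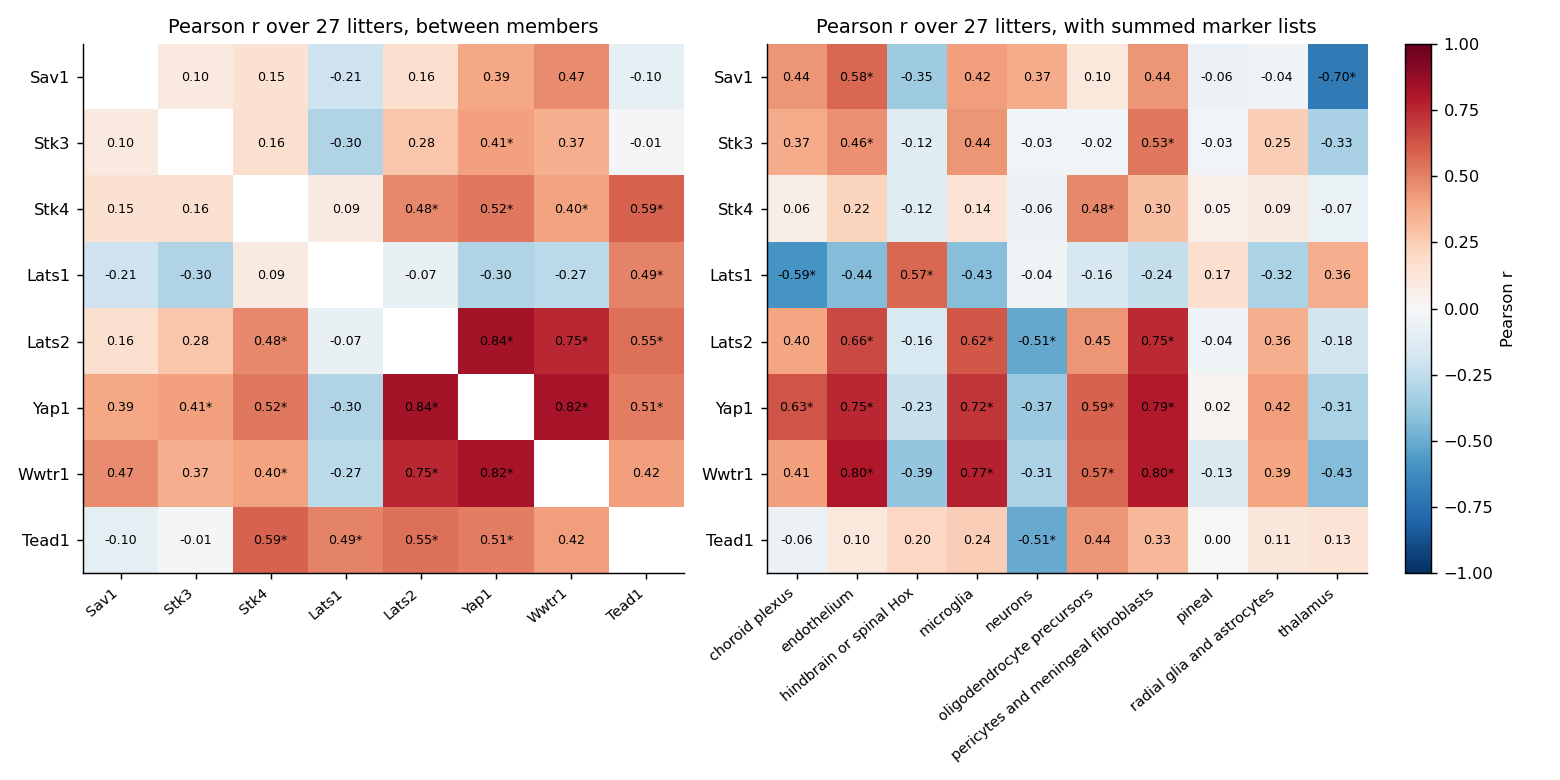
Pearson's r over 27 litter means, each relative to the mean of its pattern and batch, between the 8 genes (left) and between them and 10 summed marker lists (right). Red is positive, blue negative, and a star marks an adjusted permutation p below 0.1 within its panel's 28 or 80 pairs. Lats2, Yap1 and Wwtr1 form a block of positive values (0.75 to 0.84), and Sav1's strongest value is the negative one with thalamus (-0.70).

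The genes most like Sav1 over the 71 animals, after removing the means of pattern, batch and sex, were Cdc42ep4 (r = 0.76), Sdc1 (0.75), Rab31 (0.73), Klhl25 (0.73) and Gpr85 (0.73), of 12476 genes compared. None of them belongs to the pathway lists used here. The nearest member was Stk4 (r = 0.26), at rank 2946. For Yap1 the most like genes were Mmp14 (0.76), which encodes a membrane matrix metalloproteinase, Ctnna1 (0.75), the gene of alpha-catenin, Msn (0.72), which encodes moesin, Arhgap31 (0.72) and Mcm2 (0.69), a replication helicase gene. Lats2 came at rank 57 (r = 0.59) and Wwtr1 at rank 105 (r = 0.56) of the genes like Yap1. The other members came at rank 1257 (Stk3, r = 0.34), 2231 (Tead1, 0.24), 3093 (Sav1, 0.17), 3998 (Stk4, 0.12) and 10415 (Lats1, -0.26). These values describe shared spread between animals, which come from common libraries and litters.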

How the data were processed

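The deposited table holds raw counts per gene and animal for 17494 genes, which the authors made by aligning paired reads to the rat build rn7 with STAR 2.5.4b and counting with featureCounts. Its other measure, the exon length in bases, is also the authors' deposited value. Among counts from 1 to 9, 74.5% were even. Pattern, litter and sex were taken from the labels, and batch from the 2 series of sample titles. The members and gene lists were chosen with earlier results of these data known.

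Counts were analysed in R 4.3.3 with edgeR 4.0.16 (TMM, robust quasi-likelihood test, adjusted over all genes, FDR 0.1), after the study's methods. Fits over all 71 animals used genes with at least 1 CPM in 8 animals, and the other fits genes above 1 CPM in 2. Exposure over both batches and its interaction with sex had 1 surrogate variable (sva 3.50.0) as covariate, fits within a batch, within Control and of the batch difference had sex, and male against female had pattern and batch. CPM and RPKM are on TMM-scaled library sizes, and log2 CPM used a prior count of 2.

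Alternatives were DESeq2 1.42.0, median-ratio size factors, no filter, halved counts, litter as a random effect (limma 3.58.1), other covariates, batch 2 alone and each litter left out. Litter correlations were tested with 100000 permutations within groups of pattern and batch. Scripts were tested on simulated data. The libraries had a median of 28439195 counts (24880182 to 36234952). Genes named are the 8 members, up to 5 called pathway genes a comparison by smallest p, up to 3 genes a marker list by mean CPM, and the 5 genes most like Sav1 and the 5 most like Yap1. Promoter genes were chosen by their letters or as known targets.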

Additional observations from a re-analysis of the deposited data

Results flagged for a closer look

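In 1 of 32 groups examined (8 genes in 4 groups of 6 to 9 animals), a single animal stood apart from the rest by Dixon's test. The highest CRMP1+GDA animal, a male, had 11.4 CPM of Wwtr1, against 8.82 for the next and 7.59 for the lowest of the 6, a gap of 0.629 of the group's range, where the 95% limit is 0.625. Chance flags about 1 in 20 such groups.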

How the results depend on the processing

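Sav1's value over all exposed animals kept its direction in each alternative. Among members that did not pass, Wwtr1's value over all exposed animals turned from 0.12 to -0.02 without 1 control litter, and in CRMP1+CRMP2 those of Yap1 (0.14) and Lats2 (0.04) were -0.05 and -0.04 without the libraries with pineal or Hox RNA. Under other settings, 92 of 101 checks (counts of members called, Sav1's value, and the number of correlated pairs) kept their value within the limits set, as did 145 of 157 that left out 1 litter. These tallies say little about how firm the values are. Sav1 counted as kept when its value moved by less than 0.18, the SD of its log2 CPM among controls within batches. That limit is close to the value itself. A count of 0 members could hardly change in fits that called few genes. In CRMP1+CRMP2 the count of members called, 1, was 0 with litter as a random effect, with batch and sex as covariates, in batch 2 alone and without the 4 exposed libraries and the 1 Control library with pineal or Hox RNA, and it ran from 0 to 1 over 11 fits that each left out a litter. Genes called in all numbered 1450 there, 33 with litter as a random effect, 491 with batch and sex, 127 in batch 2 alone, 1 without those libraries, and 43 without 1 exposed litter of 2 males. Between the controls of the batches the count, 1, was 2 with median-ratio size factors, with no expression filter and with DESeq2, as Lats1 crossed the threshold, 0 with litter as a random effect and without the 1 control library with Hox RNA, and from 0 to 3 over 7 fits without a litter. The cause of these shifts was not tested. Sav1's log2 difference over all exposed animals was between 0.10 and 0.19 in 13 alternatives, the lowest in batch 2 alone with the thalamus level as a covariate, a setting added after the data had been seen, as was leaving out libraries with pineal or Hox RNA. It was between 0.16 and 0.23 without single litters. The correlations between members gave 11 pairs past the threshold with either normalization and 14 over 71 animals. Exposed animals against Control gave 4 genes in all by edgeR, 16 by DESeq2 and 0 with litter as a random effect, and the 7 members gave 0 in each. No paired analysis was possible because the replicate numbers in the titles do not tie animals of different groups together. Without the libraries with pineal or Hox RNA, 215 genes in all and 0 of 7 members passed in LDHA/B+CRMP1+STIP1. Stk3 had the fewest reads, 62 to 268 a library, and Wwtr1 the largest SE over all exposed animals (0.10), and 6 to 8 animals from 3 or 4 litters limit 3 of the patterns.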
